A study of Mus musculus with 16 samples.

Results

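The 7 genes described here encode transcription factors of myeloid cells: Cebpa, Cebpb, Cebpd and Cebpe of the C/EBP family, and Gfi1, Myb and Myc, which act in myeloid progenitors. They were taken by symbol from a table of read counts in which they make up 7 of 45664 gene entries. Their levels were read in 16 RNA libraries of 4 sorted phagocyte populations, with 4 libraries each. The populations were cornea macrophages (CD45+CD11b+CD64+F4/80+), retinal microglia and brain microglia (both CD45+CD11b+), and bone marrow monocytes (CD45+CD11b+CD115+Ly6C+). All came from C57BL/6 mice aged 8 to 10 weeks, and their line and population labels name no transgene or treatment. The extraction text instead speaks of ventral pons from CX3CR1GFP/wt mice after a facial nerve cut, which is no sample of these 16, so the library kit and strand it names were not relied on. Each cornea and each retinal sample pooled cells of 10 mice. For 8 libraries, those of brain and bone marrow, the free-text description calls the cells microglia of the retina while title, source and population do not. The last 3 labels set their group, and their pool size is unknown. The cornea was digested with warm collagenase D under shaking. Retinal tissue was broken up by mechanical force in cold buffer, and nothing used here states how brain and bone marrow were handled. The design text speaks of mRNA signatures of the 4 populations, so each pair of populations was compared.

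C/EBP proteins are basic leucine zipper factors that bind DNA as dimers, with each other or with related factors. In mouse blood formation, C/EBP alpha opens the path from multipotent progenitors to granulocyte and monocyte progenitors, and C/EBP epsilon drives the late, granule-forming steps of granulocytes. C/EBP beta and C/EBP delta are known from inflammatory and emergency responses of mature myeloid cells, and C/EBP beta also from the survival of Ly6C- monocytes and of some tissue macrophages. GFI1 is a zinc finger repressor that favours granulocytes over monocytes. MYB keeps progenitors dividing and immature, and MYC, with its partner MAX, raises the expression of genes of growth and ribosome formation. Microglia arise in the embryo from yolk sac progenitors that do not need MYB, whereas bone marrow monocytes arise continually from MYB-dependent progenitors.

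The libraries held 8.68 to 21.76 M (mega) counts. Levels are given as CPM, counts per M of the effective library size by TMM, a scaling that sets most genes level between libraries. Scaling factors were lower in the cornea libraries than in all others, and with total counts in their place the median log2 fold change of all genes fell to -0.92 for cornea against retina, where TMM gave -0.12. The same shift was -0.67 against brain and -0.67 against monocytes, where TMM gave 0 in both. Changes in cornea are therefore relative to the bulk of genes. By their sums, markers fitted the labels. The 6 microglial genes summed to 20795 to 27261 CPM in retina and 34686 to 38518 CPM in brain. The 6 tissue macrophage genes summed to 19116 to 27818 CPM in cornea, and 6 monocyte genes to 15463 to 22406 CPM in bone marrow. Cd74, averaging 18498 CPM, made up most of the cornea sum. Single genes went the other way: the macrophage gene Maf averaged 76.7 CPM in cornea, against 411 in retina and 459 in brain. The microglial gene Fcrls averaged 1069.6 CPM in cornea, against 591 in retina and 3453 in brain. Keratocyte genes (1387 to 2583 CPM) and corneal epithelium genes (229 to 1276 CPM, at most 3.0 CPM elsewhere) were found in cornea, photoreceptor genes (713 to 6488 CPM) in retina, and granulocyte genes (1599 to 5499 CPM) and erythroid genes (324 to 2136 CPM) in bone marrow. Cornea 1 to 3, all retinal libraries and monocyte library 1 ran in sequencer lane 2, and cornea 4, all brain libraries and monocyte libraries 2 to 4 in lane 3, so retina and brain have no value within a lane. Cornea 1 and 2, retina 1 and 2, and retina 3 and 4 share a title number, so n = 4 may overstate the separate samples, and p-values then measure only the spread between these libraries.

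The 7 genes parted into 3 patterns over the 4 populations. Cebpb was highest in cornea macrophages and lowest in both microglia. Cebpa and Myc were lowest in monocytes, and Cebpe, Gfi1 and Myb were nearly restricted to monocytes, with 0 to 56 counts over the libraries of any tissue population. Cebpd was not called between any pair of populations. Calls rest on an adjusted p under 0.05 (edgeR quasi-likelihood test, Benjamini-Hochberg over the 15754 entries past a filter on low counts). All 7 genes passed the filter, but Cebpe, Gfi1 and Myb did so only through the monocyte libraries and so had to be high there.

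Against monocytes, 6 of the 7 genes were called in each tissue population: 3 higher and 3 lower in cornea macrophages, 2 higher and 4 lower in retinal microglia, and 2 higher and 4 lower in brain microglia. The lower genes were Cebpe, Gfi1 and Myb, whose fall was fixed by the filter, and in both microglia also Cebpb. The counts of calls, the counts without overlap and the medians against monocytes therefore describe the 7 genes without supporting anything. Of all genes tested, 63.3% were called between cornea macrophages and monocytes, 59.3% between retinal microglia and monocytes, and 56.0% between brain microglia and monocytes. Cornea macrophages differed in 2 of the 7 genes from retinal microglia, where 66.0% of all genes were called, and in 2 from brain microglia, where 66.8% were called. Retinal and brain microglia differed in 1 of the 7, beside 10.5% of all genes. Genes that rose made up 30.9% of all genes for cornea against retina and 33.8% against brain, where both called members rose, and 35.1% and 33.1% fell. They made up 32.2% for cornea, 32.2% for retina and 28.5% for brain against monocytes, where 31.1%, 27.1% and 27.4% fell. Libraries of the 2 populations did not overlap in 5 of the 7 genes for cornea against monocytes (57.9% of all genes), 6 for retina against monocytes (55.2%) and 6 for brain against monocytes (56.7%). Between tissue populations this held for 2 genes in cornea against retina (59.1%), 3 in cornea against brain (62.4%) and 1 in retina against brain (18.1%). Cebpe, among them in both cornea comparisons, had 1 count in cornea 2. The median log2 fold change of the 7 genes was -0.05 for cornea, -1.73 for retina and -2.27 for brain against monocytes, where the medians of all genes were 0, 0.12 and 0.04. Between the tissue populations it was 0.30 for cornea against retina, 0.64 for cornea against brain and 0 for retina against brain, beside -0.12, 0 and 0.05 over all genes. In sorted bulk samples, fewer cells of a type and less RNA per cell cannot be told apart.

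**Figure D1:**
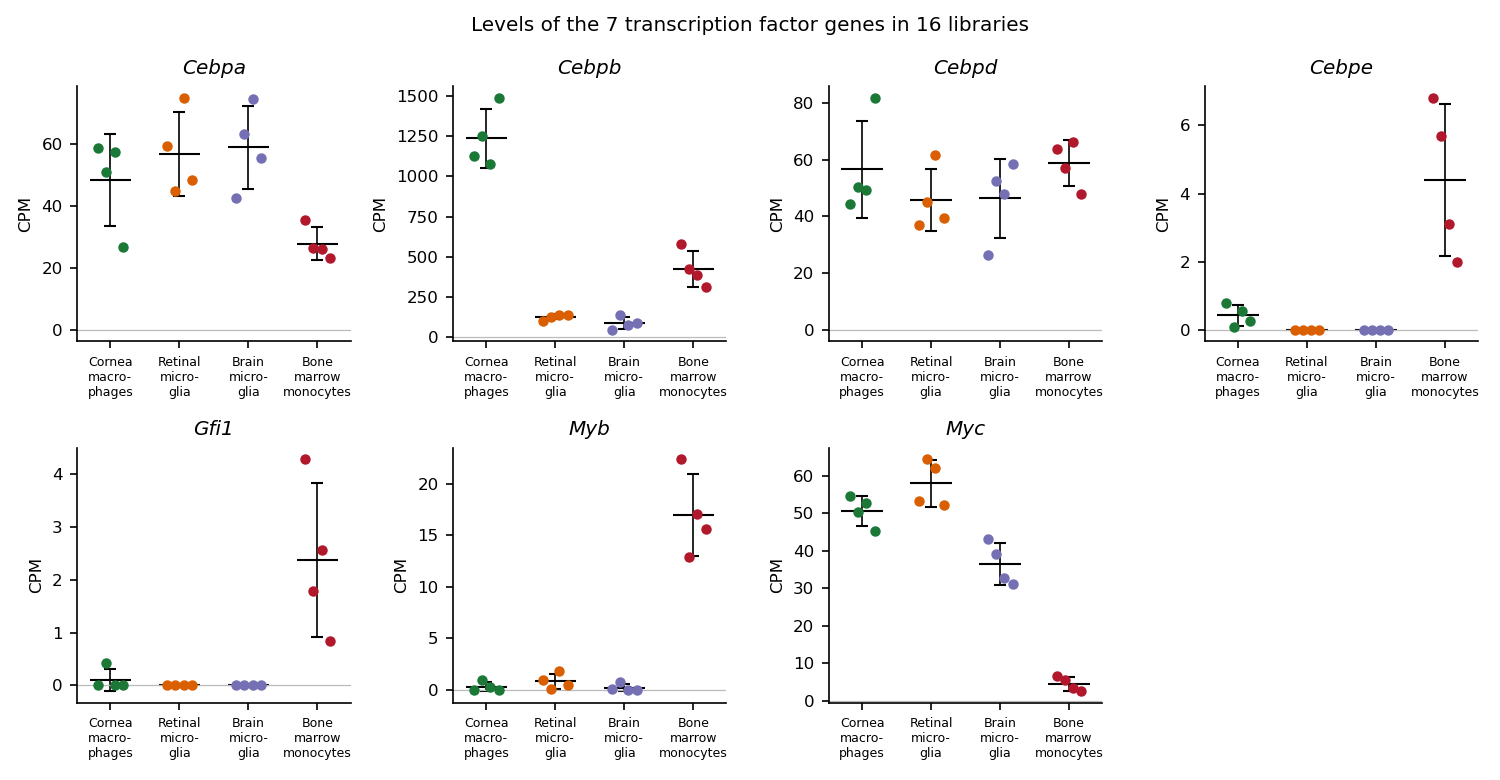
Levels of the 7 genes in CPM (vertical axes, linear) in cornea macrophages, retinal microglia, brain microglia and bone marrow monocytes; points are single libraries, bars the mean with SD (n = 4). Cebpb stands at 1078 to 1488 CPM in cornea, above all other libraries, whereas Cebpe, Gfi1 and Myb are near 0 outside bone marrow.

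Cebpb, the C/EBP gene of inflammatory activation, was the most abundant of the 7 in every population per length of transcript, with 821 ± 122 CPM per kilobase in cornea, 85.5 ± 11.2 in retina, 58.7 ± 24.4 in brain and 283 ± 74.3 in monocytes (SD, n = 4 each). Its level was 1123, 1252, 1078 and 1488 CPM in the 4 cornea libraries, 105, 128, 141 and 141 CPM in retina, 48.6, 137, 78.1 and 89.7 CPM in brain, and 578, 422, 390.3 and 312 CPM in monocytes. The cornea libraries lay above all monocyte libraries, and these above all microglial libraries, while retina and brain overlapped. Cebpb was 9.6-fold higher in cornea than in retina (log2 fold change 3.26, SE 0.26, adjusted p = 1.01e-08) and 14-fold higher than in brain (3.81, SE 0.27, adjusted p = 1.83e-09). Against monocytes it rose 2.9-fold in cornea (1.54, SE 0.25, adjusted p = 3.86e-05) and fell in retina (log2 fold change -1.73, SE 0.25, adjusted p = 1.55e-05) and in brain (-2.27, SE 0.25, adjusted p = 7.68e-07). The difference between retina and brain was 0.54 (95% interval 0.03 to 1.06, adjusted p = 0.182), and 0.83 without brain library 2 (adjusted p = 0.0308). Within lane 2, without the 1 cornea library of lane 3, the cornea exceeded the retina by a log2 fold change of 3.14 (adjusted p = 4.01e-08), and within lane 3 the brain lay below the monocytes by -2.09 (adjusted p = 3.3e-06). With total counts in place of TMM the excess of cornea over monocytes was 0.86 (adjusted p = 0.00485).

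Cebpb lies on the plus strand of chromosome 2 (chr2:167688915-167690418, GRCm38, GENCODE vM21) and has a single exon, and Cebpa lies on the plus strand of chromosome 7 (chr7:35119293-35121928). Promoters from RefSeq (GRCm38.p6), 250 bases before to 50 after a gene's start, matched 4 of the 7 genes. Those of Cebpb and Cebpa are shown since the ratio of these 2 genes is among the results given for each library. Both strands of each promoter were searched for TTGCNNAA (a C/EBP site), CACGTG (MYC and MAX), AAATCAC (GFI1), AACGG (MYB), TATAAA (a core promoter box), TGACG (CREB and ATF) and GGCGGGA (E2F), the last 3 chosen after the sequences had been seen. Matches stand in capitals, on the gene's own strand, and no 2 of them overlap.
Cebpb, chr2:167688665-167688964, plus strand: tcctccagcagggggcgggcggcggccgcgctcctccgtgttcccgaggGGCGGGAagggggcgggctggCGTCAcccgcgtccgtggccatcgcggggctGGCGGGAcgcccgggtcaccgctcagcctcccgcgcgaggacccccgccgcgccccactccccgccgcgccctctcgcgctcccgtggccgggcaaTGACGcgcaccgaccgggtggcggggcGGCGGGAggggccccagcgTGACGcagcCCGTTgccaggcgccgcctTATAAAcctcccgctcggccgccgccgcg
Cebpa, chr7:35119043-35119342, plus strand: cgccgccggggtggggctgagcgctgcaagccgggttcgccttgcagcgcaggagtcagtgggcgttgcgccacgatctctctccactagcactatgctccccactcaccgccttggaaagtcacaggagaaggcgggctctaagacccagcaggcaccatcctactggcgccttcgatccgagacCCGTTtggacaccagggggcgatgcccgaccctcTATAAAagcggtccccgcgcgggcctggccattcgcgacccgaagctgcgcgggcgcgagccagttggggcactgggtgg
The Cebpb promoter held TGACG or its complement 3 times, GGCGGGA 3 times, TATAAA once and the complement of AACGG once, and 80.7% of its bases were G or C. The Cebpa promoter, 67.3% G or C, held TATAAA once and the complement of AACGG once. TATAAA began at position -30, before the RefSeq start, in the Cebpa promoter, but at position 22, after the start, in that of Cebpb. Of 32851 promoters of the same length, whose median was 52.7% G or C, 20.8% held TGACG, 11.3% GGCGGGA, 13.6% TATAAA and 17.4% AACGG. TTGCNNAA (10.8% of all promoters), CACGTG (7.15%) and AAATCAC (3.2%) had no match in either window. A match is a string of letters and not a measured binding site.

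The count of Cebpb may include reads of a neighbour. Tmem189, on the opposite strand, shares 312 exon bases with Cebpb, which are 20.7% of its exon, and the strand setting of the counting is unknown here. Tmem189 itself stood at 462 ± 15.8 CPM in cornea, 59.7 ± 2.53 in retina, 52.9 ± 5.34 in brain and 52.7 ± 3.6 in monocytes (SD, n = 4 each), so it too was higher in cornea. The part of shared reads in either gene was not tested.

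Cebpa, the factor that commits progenitors to the myeloid path, was lower in monocytes than in the 3 tissue populations. It stood at 58.7, 50.9, 57.3 and 26.6 CPM in cornea, 59.2, 44.8, 75.0 and 48.5 CPM in retina, 42.7, 63.2, 74.5 and 55.4 CPM in brain, and 35.5, 26.5, 26.0 and 23.1 CPM in monocytes. All retinal and brain libraries lay above all monocyte libraries, whereas cornea 4 fell among the monocytes. Against monocytes, Cebpa was 1.73-fold higher in cornea (log2 fold change 0.79, SE 0.25, adjusted p = 0.00953), 2.04-fold higher in retina (1.03, SE 0.25, adjusted p = 0.00176) and 2.12-fold higher in brain (1.08, SE 0.25, adjusted p = 0.00124). The tissue populations were not called different from each other, with intervals of -0.75 to 0.28 for cornea against retina, -0.80 to 0.23 for cornea against brain and -0.56 to 0.46 for retina against brain.

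The lane bears on these calls. Cornea 4 and monocyte libraries 2 to 4, all of lane 3, were lower in Cebpa than the lane 2 libraries of the same populations. With the lane as a term, Cebpa was called against monocytes in brain only (1.29, adjusted p = 4.91e-05), while cornea gave 0.37 (adjusted p = 0.188) and retina 0.46 (adjusted p = 0.165), and cornea then fell below brain (-0.93, adjusted p = 0.00786). Within lane 3, brain stood above monocytes by 1.22 (adjusted p = 0.00123). Within lane 2, cornea (50.9 to 58.7 CPM) and retina (44.8 to 75.0 CPM) both lay above the single monocyte library at 35.5 CPM. With total counts, cornea against monocytes was 0.13 (adjusted p = 0.655), and Cebpa fell in cornea against retina (-1.02, adjusted p = 0.00105) and brain (-0.95, adjusted p = 0.00195).

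Cebpd, the other C/EBP gene of acute inflammation, was not called between any pair of populations. It stood at 44.5, 50.4, 49.3 and 81.9 CPM in cornea, 37.1, 45.1, 61.6 and 39.5 CPM in retina, 26.3, 52.5, 47.9 and 58.5 CPM in brain, and 63.8, 57.1, 66.1 and 48.0 CPM in monocytes. The 4 populations overlapped throughout. The largest difference, retina against monocytes, was -0.36 (95% interval -0.87 to 0.15, adjusted p = 0.214), and cornea against retina was 0.30 (interval -0.21 to 0.82, adjusted p = 0.279). That interval ends below the 3.26 of Cebpb. With total counts, Cebpd fell in cornea against monocytes (-0.73, adjusted p = 0.0123). Cebpd lies on the plus strand of chromosome 16 (chr16:15887286-15891031), where Spidr on the opposite strand shares 562 of its 3746 annotated exon bases. The deposited table gives Cebpd a length of 1180 bases, so whether its counts cover the shared bases is not known. Spidr averaged 23.2 ± 3.07 CPM in cornea, 22.1 ± 3.14 in retina, 27.9 ± 1.04 in brain and 60.7 ± 12.6 in monocytes (SD, n = 4 each).

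The makeup of the C/EBP transcripts also differed in level between populations. Per kilobase, Cebpb took 91.8 to 93.1% of the 4 family members in the cornea libraries, 53.7 to 64.4% in retina, 43.0 to 57.1% in brain and 79.1 to 84.0% in monocytes. The cornea and monocyte libraries each lay above all microglial libraries, and cornea above monocytes. Cebpa made up 0.946 to 2.79% in cornea, 12.1 to 18.2% in retina, 15.1 to 23.4% in brain and 2.93 to 3.4% in monocytes. The ratio of Cebpb to Cebpa, both per kilobase, averaged 51.8 ± 31.0 in cornea, 4.12 ± 1.07 in retina, 2.61 ± 0.898 in brain and 26.6 ± 2.19 in monocytes (SD, n = 4 each). Cornea 4, with its low Cebpa, had the highest ratio at 97.8. The summed level of the 4 genes was 888 ± 130.1 CPM per kilobase in cornea, 146 ± 20.8 in retina, 120.4 ± 36.9 in brain and 347 ± 82.9 in monocytes. For Cebpd the length of the deposited table (1180 bases) is shorter than that of the annotation (3746 bases), and its share rests on the table's length.

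**Figure D2:**
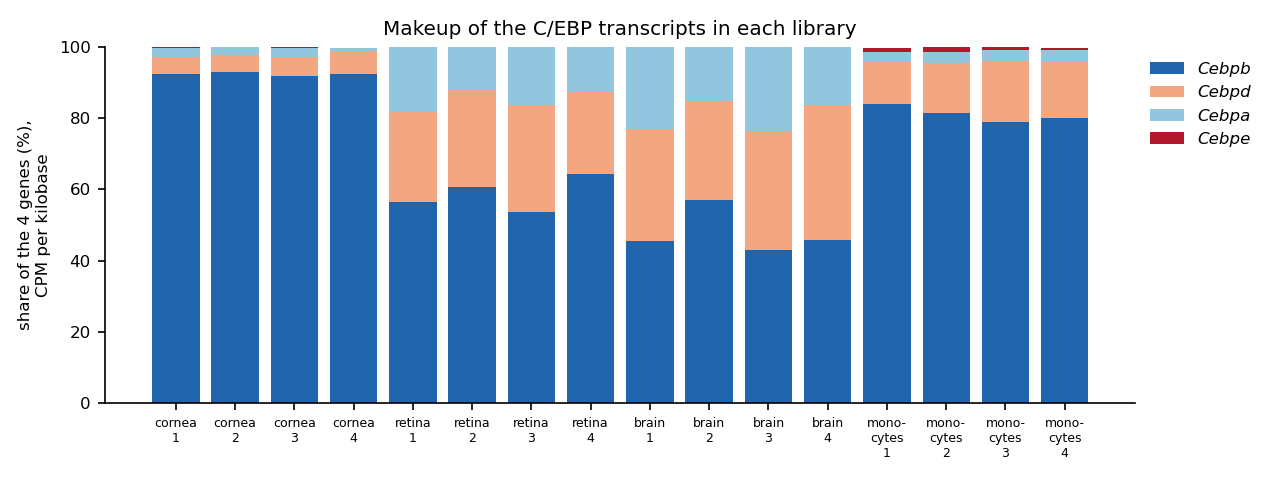
Share of each C/EBP gene in the summed CPM per kilobase of the 4 genes (vertical axis, %), for each of the 16 libraries. Cebpb takes 91.8 to 93.1% in the cornea libraries and 79.1 to 84.0% in the monocyte libraries, above its shares in all microglial libraries.

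Partners and regulators of the C/EBP factors rose in cornea more often than they fell. Of 12 measured partners, 8 rose and 3 fell in cornea macrophages against retinal microglia (median log2 fold change 2.21), 8 rose and 2 fell against brain microglia (2.44), and 7 rose and 1 fell against monocytes (2.45). With total counts 6 rose and 3 fell against monocytes (1.86), and 7 rose and 3 fell against brain (1.76). Atf3, a stress-induced basic leucine zipper factor, averaged 2427 ± 670.4 CPM in cornea, against 50.3 ± 13.7 in retina, 22.2 ± 4.62 in brain and 50.4 ± 5.35 in monocytes (SD, n = 4 each). Atf3 is also one of the dissociation and immediate-early genes given below. Ddit3, a stress-induced C/EBP relative that forms inactive dimers with other C/EBP proteins, rose in cornea to 80.0 ± 7.95 CPM, against 6.66 ± 1.35 in monocytes (log2 fold change 3.58, adjusted p = 2.88e-10). Batf3, a factor of dendritic cell formation, fell in cornea to 0.818 ± 0.42 CPM, against 22.0 ± 6.85 in retina and 12.6 ± 1.86 in brain.

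The Tribbles pseudokinases, of which TRIB1 and TRIB2 direct the breakdown of C/EBP alpha, differed between populations. Trib1 averaged 147 ± 18.5 CPM in cornea, 63.7 ± 11.6 in retina, 80.6 ± 9.27 in brain and 7.02 ± 4.73 in monocytes (SD, n = 4 each), and rose against monocytes in all 3 tissue populations by log2 fold changes of 4.36 (adjusted p = 8.49e-09), 3.15 (adjusted p = 4.12e-07) and 3.49 (adjusted p = 1.17e-07). Trib2 was a gene of the retinal libraries, with 11.5 ± 8.64 CPM, against 0.275 ± 0.495 CPM in brain (5.21, SE 1.02, adjusted p = 0.00478) and 0 counts in monocytes, so that it was at least 219-fold higher in retina than in monocytes. However, Trib2 passed the filter on low counts only through the retinal libraries and so had to be high there. Nfil3, another basic leucine zipper factor, fell to 13.2 ± 3.52 CPM in retina and 18.1 ± 2.88 CPM in brain, against 115 ± 26.5 CPM in monocytes. Of the 12 partners, 6 rose and 3 fell in retina against monocytes (median 1.01), and 5 rose and 4 fell in brain (0.71). Between retina and brain 3 rose, Trib2 among them, and none fell, where 6.95% of all genes rose. With the lane as a term 0 of these were called.

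Genes known as targets of C/EBP beta and C/EBP delta in inflammation were high in cornea beside Cebpb. Of 14 measured targets, 12 rose and 0 fell in cornea against retina (median log2 fold change 5.70), 12 rose and 0 fell against brain (7.77), and 12 rose and 1 fell against monocytes (9.68). Of the 14, Il10, Csf3 and Ptgs2 passed the filter only through the cornea libraries and had to be higher there, and Hp and Saa3 only through the monocyte libraries. Cxcl2, a chemokine that draws neutrophils, averaged 17524 ± 2436 CPM in cornea, against 0.518 ± 0.186 in retina, 0.714 ± 1.3 in brain and 1.1 ± 1.26 in monocytes (SD, n = 4 each). Ptgs2, the prostaglandin synthase COX-2, averaged 2602 ± 312 CPM in cornea, against 0.174 ± 0.152 in retina, 0 in brain and 0.134 ± 0.188 in monocytes. Il10, an anti-inflammatory cytokine, averaged 373 ± 107 CPM in cornea and had 0 counts in retina and in monocytes. Haptoglobin (Hp) was the target that fell, to 0.0166 ± 0.0332 CPM in cornea, against 1079.9 ± 93.3 in monocytes.

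In the microglia, whose Cebpb lay below that of monocytes, targets were called either way. In retina 7 targets rose and 2 fell against monocytes (median 1.20), and in brain 5 rose and 2 fell (0.20). Cd14, a coreceptor for bacterial lipopolysaccharide, rose to 675 ± 87.2 CPM in retina and 487 ± 82.6 CPM in brain, against 33.0 ± 13.3 CPM in monocytes (SD, n = 4 each). Hp fell in both, to 0.0986 ± 0.197 CPM in retina and 0.129 ± 0.0351 CPM in brain. Between retina and brain 5 targets rose and 0 fell, among them Tnf with 9.89 ± 2.92 CPM in retina, against 1.03 ± 1.09 CPM in brain (3.26, SE 0.46, adjusted p = 0.000169), and 3 were called with the lane as a term.

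Genes of cell dissociation and the immediate-early response moved with Cebpb and its targets in cornea. Of 16 such genes, 15 rose and 0 fell in cornea against retina (median log2 fold change 3.67), 15 rose and 0 fell against brain (4.35), and 14 rose and 0 fell against monocytes (3.82). Hspa1a, a heat shock protein gene, averaged 7185 ± 1777 CPM in cornea, against 4.63 ± 2.91 in retina, 8.48 ± 6.25 in brain and 5.16 ± 2.84 in monocytes (SD, n = 4 each). In retina 5 rose and 2 fell against monocytes (0.01, and -0.31 with the lane as a term), in brain 6 rose and 5 fell (0.45), and between retina and brain 4 rose and 0 fell (0.35), of which 0 were called with the lane as a term. Their part, that of the keratocyte and epithelial RNA in the cornea libraries, and that of the warm digestion given for the cornea, in the level of Cebpb was not tested, and digestion and tissue cannot be told apart here.

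**Figure D3:**
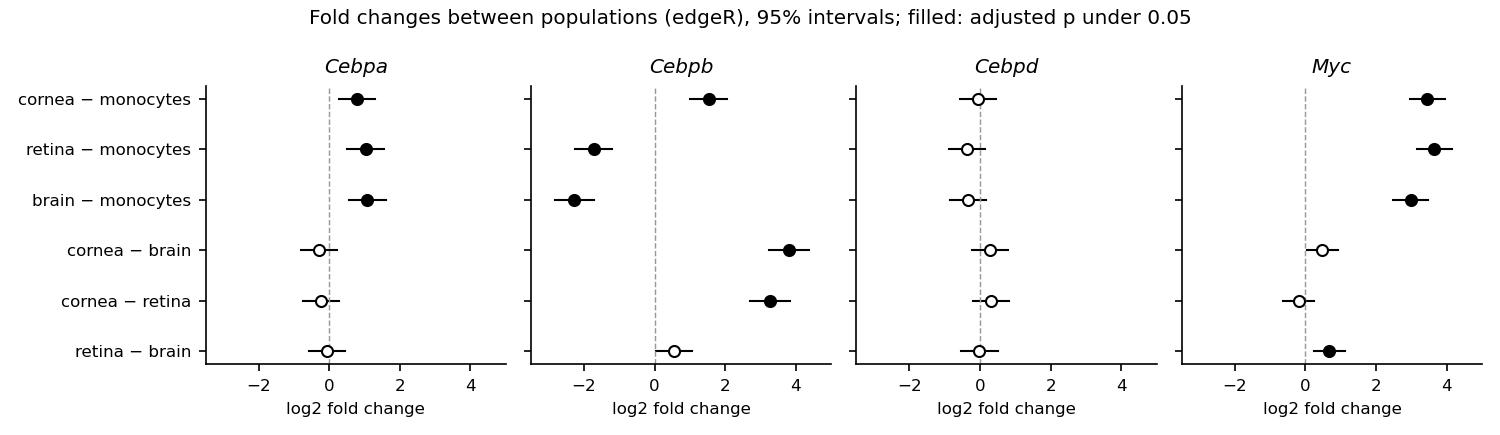
Log2 fold changes (horizontal axis) of Cebpa, Cebpb, Cebpd and Myc between pairs of populations, first-named minus second-named, with 95% intervals from the edgeR fit; filled points have an adjusted p under 0.05. Cebpb is above 0 in cornea and below 0 in both microglia against monocytes, Cebpd crosses 0 in all 6 pairs, and Myc stands at 2.98 to 3.65 against monocytes.

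Cebpe, the C/EBP gene of late granulocyte formation, was a gene of the monocyte libraries. It stood at 0.794, 0.0852, 0.538 and 0.266 CPM in cornea, 0 in all retinal and all brain libraries, and 6.82, 5.68, 3.11 and 1.99 CPM in monocytes. All cornea libraries lay below all monocyte libraries and above all microglial libraries, on 19 counts over the 4 cornea libraries and 270 over the monocyte libraries. However, cornea 2 held 1 count (0.0852 CPM), while 3 counts would give 0.121 to 0.305 CPM in single microglial libraries. Its place above them is therefore not resolved. Cebpe was 12.1-fold lower in cornea than in monocytes (counting interval 7.58 to 20.4, edgeR adjusted p = 0.00205). It was at least 120.5-fold lower in retina and at least 71.4-fold lower in brain than in monocytes, against a floor of 3 counts over each group (adjusted p = 3.22e-05 and 5.85e-05). In cornea it was at least 9.98-fold higher than in retina and at least 5.91-fold higher than in brain (adjusted p = 0.00114 and 0.00279). The floor of 3 counts is 0.0392 CPM over the retinal libraries and 0.0661 CPM over the brain libraries, while the exact 95% upper limits of a count of 0 are 0.0482 and 0.0813 CPM. All these limits and intervals cover counting error only. The fall of Cebpe against monocytes was fixed by the filter, so its p-values there describe without supporting anything. Cebpe lies on the minus strand of chromosome 14 (chr14:54710360-54712174).

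Gfi1, the repressor that favours granulocytes over monocytes, followed the same pattern at lower levels. It stood at 0, 0.426, 0 and 0 CPM in cornea, 0 in all retinal and all brain libraries, and 4.29, 1.79, 2.56 and 0.852 CPM in monocytes. No tissue library reached the lowest monocyte library, and all 5 counts in cornea came from cornea 2. As with Cebpe, the fall of Gfi1 against monocytes was fixed by the filter. Gfi1 was 26.0-fold lower in cornea than in monocytes (counting interval 10.9 to 81.2, adjusted p = 0.0065), and at least 68.3-fold lower in retina (adjusted p = 0.000747) and 40.4-fold lower in brain (adjusted p = 0.00138). Cornea against retina was not called (adjusted p = 0.0647), nor was cornea against brain (adjusted p = 0.109). The first was called without cornea 3 (adjusted p = 0.0482), without cornea 4 (adjusted p = 0.0437) and with the lane as a term (adjusted p = 0.0495). Gfi1 lies on the minus strand of chromosome 5 (chr5:107716657-107726036), and its first RefSeq promoter is shown since it alone of the 5 promoters of these genes held the C/EBP letters TTGCNNAA, here in capitals.
Gfi1, chr5:107725756-107726055, minus strand: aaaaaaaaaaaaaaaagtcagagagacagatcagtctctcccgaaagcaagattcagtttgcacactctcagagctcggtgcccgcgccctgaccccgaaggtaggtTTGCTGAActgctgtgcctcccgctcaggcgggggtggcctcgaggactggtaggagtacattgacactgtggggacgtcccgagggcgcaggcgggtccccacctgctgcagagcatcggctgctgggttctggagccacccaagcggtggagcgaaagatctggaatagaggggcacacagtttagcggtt
The match begins at position -143, counted from the RefSeq start of this promoter, which lies inside the GENCODE span given for the gene, and 10.8% of all promoters hold such a match.

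Granule genes, which C/EBP epsilon and GFI1 are known to serve in granulocyte precursors, were also found in the monocyte libraries. Of 18 measured, 18 fell in cornea against monocytes (median log2 fold change -10.27), and 17 fell and 1 rose in retina (-12.47) and in brain (-11.26). However, 16 of the 18 passed the filter on low counts only through the monocyte libraries and so had to be lower elsewhere, and these counts and medians describe the list without supporting anything. Elane, neutrophil elastase, averaged 153 ± 57.6 CPM in monocytes (SD, n = 4) and had 0 counts in cornea, retina and brain. Mpo, myeloperoxidase, had 0 counts in cornea and in retina, against 378 ± 146 CPM in monocytes. Cd177, a neutrophil surface protein, averaged 0.0498 ± 0.0996 CPM in cornea, 0 in retina and 0.0436 ± 0.0517 in brain, against 608 ± 53.3 CPM in monocytes. The gene that rose in microglia was Csf3r, the receptor of granulocyte colony-stimulating factor, with 110.3 ± 21.2 CPM in cornea, 410.2 ± 23.6 in retina, 379 ± 37.4 in brain and 248 ± 8.53 in monocytes. Its log2 fold change was 0.72 in retina (adjusted p = 0.000153) and 0.61 in brain (adjusted p = 0.000715) against monocytes, and in cornea -1.90 against retina (adjusted p = 1.88e-09) and -1.78 against brain (adjusted p = 3.74e-09). Of the 18 genes, 4 rose and 1 fell in cornea against retina (0.84), 2 rose and 1 fell against brain (median 0), and 0 were called between retina and brain. With total counts 2 rose and 1 fell against retina (0.17).

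Within the bone marrow libraries the granulocyte markers varied unevenly. The 13 markers, none of which was at 0 there, summed to 5499, 3006, 1599 and 1619.7 CPM in monocyte libraries 1 to 4, where Cebpe was 6.82, 5.68, 3.11 and 1.99 CPM. Library 1 was highest and library 2 second in Cebpe and in this sum, to which Ngp (1080.1, 489, 77.7 and 45.5 CPM) contributed much. Cd177 (667, 637, 578 and 550.4 CPM) varied less, and Mmp8 (308, 269.7, 268 and 330 CPM) was highest in library 4. Erythroid markers summed to 2136, 1385, 406 and 324 CPM in libraries 1 to 4, the order of Cebpe. Library 1 was also the only monocyte library of lane 2. Mpo (590, 267, 298 and 358 CPM) and Elane (233, 122, 102 and 156 CPM) were also highest in library 1, but second in library 4, where Cebpe was lowest, while Gfi1 and Myb were highest in library 1 and did not follow in libraries 2 to 4. Without library 1, Cebpe was lower in brain than in monocytes (adjusted p = 0.000285). This direction was fixed by the filter and supports nothing. In the tissue libraries the granulocyte markers summed to 1.11 to 3.72 CPM in cornea, 0.0539 to 0.947 CPM in retina and 0 to 18.5 CPM in brain, with Elane and Retnlg at 0 in all of these. The part of granulocytes or their precursors, of erythroid cells or of the lane in the monocyte values was not tested.

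**Figure D4:**
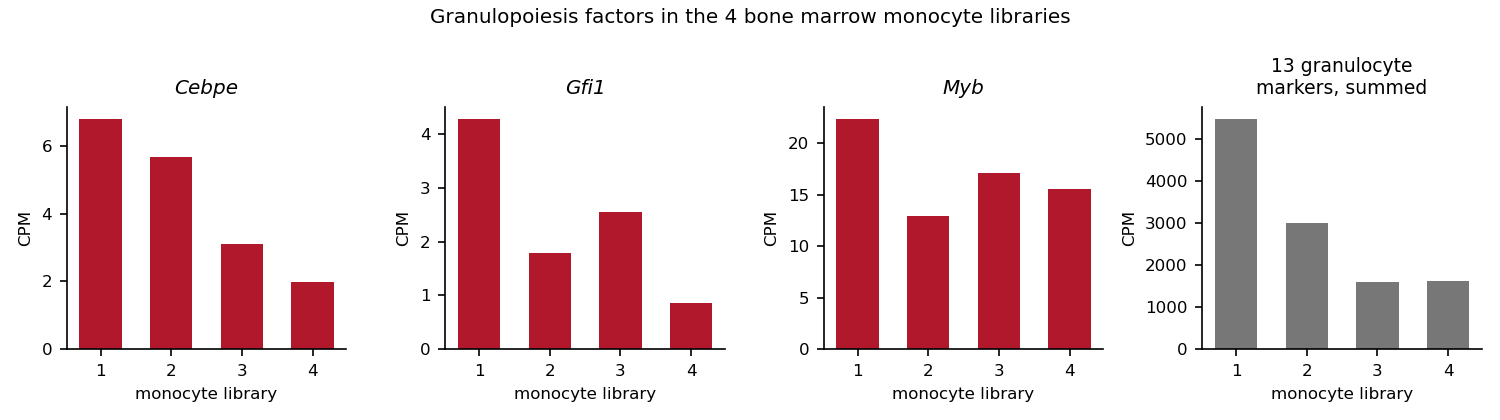
CPM of Cebpe, Gfi1 and Myb and the summed CPM of 13 granulocyte markers (vertical axes) in the 4 bone marrow monocyte libraries, as bars from 0. Library 1, the only monocyte library of lane 2, is highest in all 4 panels, at 6.82 CPM for Cebpe and 5499 CPM for the markers.

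Corepressors and opponents of GFI1 changed in cornea. Of 16 measured, 11 rose and 2 fell in cornea against retina (median log2 fold change 1.70), 11 rose and 2 fell against brain (2.01), and 9 rose and 5 fell against monocytes (0.89). With total counts these were 10 and 4 (0.90), 9 and 5 (1.34), and 7 and 6 (0.22). Egr1 and Egr2, zinc finger factors that push progenitors towards macrophages against GFI1, stood high in cornea. Egr1 averaged 898 ± 229 CPM in cornea, 76.4 ± 69.9 in retina, 30.3 ± 5.21 in brain and 0.595 ± 0.45 in monocytes (SD, n = 4 each), and Egr2 averaged 208 ± 56.0 CPM in cornea, against 3.47 ± 0.245 in retina, 3.33 ± 0.822 in brain and 0.445 ± 0.473 in monocytes. Id2, an inhibitor of helix-loop-helix factors that GFI1 is known to repress, averaged 965 ± 155 CPM in cornea, against 43.1 ± 4.18 in retina and 36.3 ± 6.34 in brain. Egr1 is also one of the 16 dissociation genes. Against monocytes 5 rose and 6 fell in retina (-0.33) and 5 rose and 5 fell in brain (-0.13), Klf4, a factor of monocyte formation, falling to 5.67 ± 3.44 CPM in retina and 3.65 ± 1.86 CPM in brain, against 78.5 ± 14.4 CPM in monocytes. Between retina and brain 0 of 16 were called.

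Myb, the factor of dividing progenitors, was nearly restricted to monocytes. It stood at 0, 0.937, 0.231 and 0 CPM in cornea, 0.947, 0.0488, 1.78 and 0.403 CPM in retina, 0.0857, 0.712, 0 and 0 CPM in brain, and 22.4, 12.9, 17.1 and 15.6 CPM in monocytes. Every monocyte library lay above every tissue library, and the tissue populations overlapped. Against monocytes the log2 fold change was -5.82 in cornea (SE 1.06, adjusted p = 0.000134), -4.43 in retina (SE 0.94, adjusted p = 0.000693) and -6.47 in brain (SE 1.12, adjusted p = 0.000104). In pooled counts Myb was 62.6-fold lower in cornea (counting interval 37.2 to 115) and 102-fold lower in brain (51.7 to 238) than in monocytes. The direction of these falls, too, was fixed by the filter. The tissue populations were not called different, with adjusted p = 0.248 for cornea against retina, 0.666 for cornea against brain and 0.29 for retina against brain. Without cornea 2, Myb fell in cornea against retina (-3.15, adjusted p = 0.0416). Myb lies on the minus strand of chromosome 10 (chr10:21124935-21160984), and its promoter is shown for the E2F letters GGCGGGA, in capitals, since E2F factors serve the cell cycle described next.
Myb, chr10:21160935-21161234, minus strand: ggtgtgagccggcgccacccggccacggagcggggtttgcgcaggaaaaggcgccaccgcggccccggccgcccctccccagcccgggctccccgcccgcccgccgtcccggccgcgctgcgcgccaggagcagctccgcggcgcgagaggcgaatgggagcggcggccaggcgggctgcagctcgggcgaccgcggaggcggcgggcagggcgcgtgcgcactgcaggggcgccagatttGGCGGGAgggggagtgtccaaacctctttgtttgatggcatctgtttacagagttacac
The match begins at position -9, 11.3% of all promoters hold one, and 75.0% of the bases shown are G or C.

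Cell cycle genes were high in monocytes together with Myb. Of 16 measured, 1 rose and 14 fell in cornea against monocytes (median log2 fold change -2.99), 0 rose and 14 fell in retina (-3.11), and 0 rose and 14 fell in brain (-5.69). Top2a, the topoisomerase of dividing cells, averaged 22.6 ± 4.23 CPM in retina, 1.15 ± 1.77 in brain and 406 ± 61.2 in monocytes (SD, n = 4 each). Plk1, a mitotic kinase, averaged 1.5 ± 0.899 CPM in cornea, 6.56 ± 2.76 in retina, 0.186 ± 0.141 in brain and 53.7 ± 4.76 in monocytes. Against brain, 13 rose and 1 fell in cornea (2.02) and 10 rose and 0 fell in retina (2.29), of which 5 were called with the lane as a term. Myb itself was not called between retina and brain. Cornea against retina was mixed, with 7 higher and 3 lower (0.01), against 3 higher and 8 lower with total counts (-0.77).

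The relatives and partners of MYB changed less uniformly. Of 8 measured, 2 rose and 4 fell in cornea against monocytes (median -0.63), 1 rose and 4 fell in retina (-0.51) and 0 rose and 2 fell in brain (-0.38). Mybl2, the family member of dividing cells, was highest in monocytes as Myb was, with 1.91 ± 0.766 CPM in cornea, 0.947 ± 0.649 in retina, 0.127 ± 0.254 in brain and 11.0 ± 2.38 in monocytes (SD, n = 4 each). It fell against monocytes by 2.51 on the log2 scale in cornea (adjusted p = 0.00501), 3.55 in retina (adjusted p = 0.000564) and 6.48 in brain (adjusted p = 1.51e-05). Mybl2 was also called between cornea and brain (3.97, adjusted p = 0.00118). Men1, encoding menin, a cofactor of MYB, fell in cornea to 9.46 ± 4.16 CPM, against 27.8 ± 1.6 in retina, 39.4 ± 4.93 in brain and 36.7 ± 3.86 in monocytes. Cornea against retina gave 2 higher and 4 lower (0.04), a median that total counts moved to -0.78, and cornea against brain 4 higher and 3 lower (0.05), which moved to -0.62 and, with the lane as a term, to -0.19. With total counts the splits were 1 and 4 against retina, 2 and 4 against brain, and 1 and 4 against monocytes (-1.30). Between retina and brain 0 of 8 were called.

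Progenitor transcription factors did not share the restriction of Myb to monocytes. Of 16 measured, 9 rose and 6 fell in retina against monocytes (median log2 fold change 0.47), 8 rose and 5 fell in brain (0.45), and 4 rose and 7 fell in cornea (-0.70, and 3 and 9 with total counts, -1.37). With the lane as a term, 5 rose and 6 fell in retina (0.24). Sox4, a factor of early progenitors, averaged 4.6 ± 1.34 CPM in cornea, 53.0 ± 6.62 in retina, 137 ± 32.4 in brain and 1.17 ± 0.796 in monocytes (SD, n = 4 each), and it was the 1 gene of the list called between retina and brain (-1.37, adjusted p = 0.00484). Tal1, a factor of blood stem cells, averaged 12.2 ± 1.92 CPM in retina, against 0.674 ± 0.177 in monocytes. Bcl11a, a factor of early lymphoid and dendritic cell formation, fell to 0.917 ± 0.962 CPM in cornea, 0.46 ± 0.357 in retina and 1.14 ± 0.477 in brain, against 30.0 ± 2.11 in monocytes. Cornea fell below the microglia in 9 genes and rose in 6, with medians of -1.91 against retina and -2.04 against brain, Hhex, a homeobox factor, averaging 5.31 ± 1.51 CPM in cornea, against 86.6 ± 7.75 in retina.

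Myc, which encodes a factor of cell growth and division, was lowest in monocytes, where Myb was highest. It stood at 54.5, 50.2, 52.6 and 45.2 CPM in cornea, 53.2, 64.4, 62.1 and 52.1 CPM in retina, 43.0, 39.1, 32.7 and 31.1 CPM in brain, and 6.6, 5.48, 3.56 and 2.63 CPM in monocytes. Every tissue library lay far above every monocyte library, and the brain libraries lay below all cornea and retinal libraries. Against monocytes Myc was 11-fold higher in cornea (log2 fold change 3.45, SE 0.23, adjusted p = 1.04e-09), 12.5-fold higher in retina (3.65, SE 0.24, adjusted p = 8.12e-10) and 7.9-fold higher in brain (2.98, SE 0.23, adjusted p = 7.19e-09). With the lane as a term these were 3.27 in cornea (adjusted p = 3.21e-09) and 3.34 in retina (adjusted p = 3.11e-08). Myc lies on the plus strand of chromosome 15 (chr15:61985391-61990374).

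The lower Myc of brain microglia rests on a narrow call. Retina against brain gave 0.67 (95% interval 0.23 to 1.11, adjusted p = 0.0488), and this call held under 8 of 25 alternative settings. Leaving out 1 library ended it for 13 of the 16 libraries, all 4 of retina and all 4 of brain among them, with values of 0.60 to 0.75. With the lane as a term it was 0.20 (adjusted p = 0.8), and brain has no library in the lane of the retina. Cornea against brain gave 0.47 (95% interval 0.03 to 0.91) and was not called (adjusted p = 0.0536), although the libraries did not overlap. It was called under 7 of 25 alternatives: RLE factors (adjusted p = 0.0343), DESeq2 (0.0224), a minimum of 50 (0.0361), the pair only (0.014), and without brain 1 (0.046), monocytes 1 (0.0337) or monocytes 4 (0.0239). That difference was -0.20 with total counts (adjusted p = 0.404) and 0.12 with the lane as a term (adjusted p = 0.688). Cornea against retina was -0.19 (95% interval -0.63 to 0.24, adjusted p = 0.416), and -0.99 with total counts (adjusted p = 0.000497).

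The network of MAX, the shared partner through which MYC and its antagonists bind DNA, held members that moved either way. Of 13 measured members, 6 rose and 5 fell in cornea against retina (median 0.19), 5 rose and 4 fell against brain (0.28), and 6 rose and 5 fell against monocytes (0.37), and total counts gave 4 and 7 (-0.60), 3 and 5 (-0.39), and 4 and 6 (-0.31). Mxd1, an antagonist of MYC, averaged 382 ± 46.5 CPM in cornea, against 23.8 ± 7.06 in retina, 30.3 ± 2.61 in brain and 33.4 ± 7.25 in monocytes (SD, n = 4 each). Mxd3, an antagonist known from dividing cells, averaged 0.133 ± 0.217 CPM in cornea, 1.26 ± 1.29 in retina, 0.196 ± 0.345 in brain and 12.4 ± 2.41 in monocytes. This gene passed the filter on low counts only through the monocyte libraries and so had to be high there.

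Mlxipl, the glucose-sensing relative of MYC, was a gene of microglia, with 0.315 ± 0.332 CPM in cornea, 147 ± 23.1 in retina, 89.0 ± 21.7 in brain and 1.46 ± 1.44 in monocytes (SD, n = 4 each). Mycl, a paralogue of Myc, rose against monocytes in retina to 14.6 ± 0.875 CPM (log2 fold change 4.10, adjusted p = 9.46e-05) and in brain to 40.3 ± 8.22 CPM (5.56, adjusted p = 5.13e-06), against 0.851 ± 0.0641 CPM in monocytes. Of the 13 members, 3 rose and 4 fell in retina against monocytes (median 0.03), and 3 rose and 3 fell in brain (0.17). Mxi1, an antagonist of MYC, was the 1 member called between retina and brain (-0.58, adjusted p = 0.015), and 0 were called with the lane as a term.

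**Figure D5:**
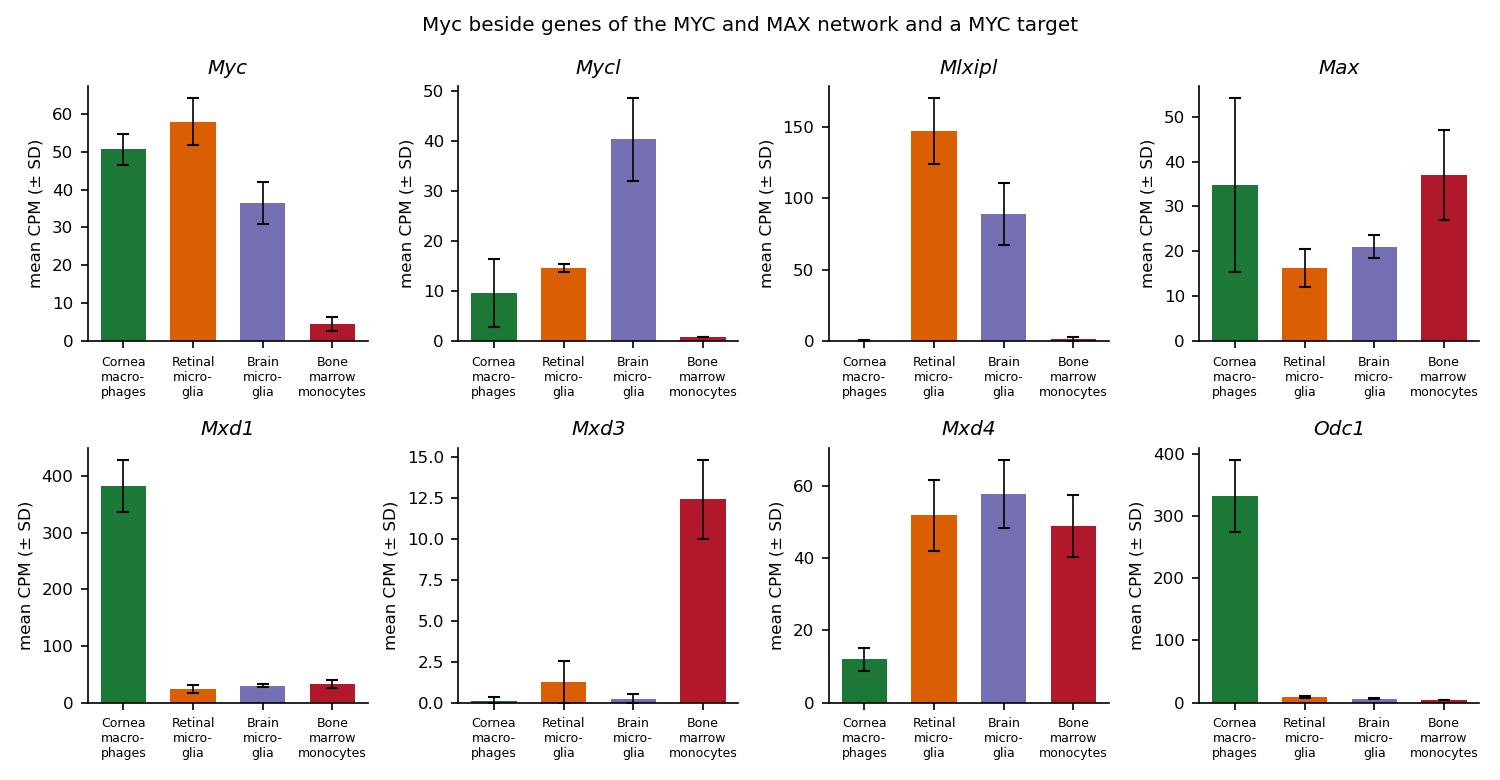
Mean CPM with SD (vertical axes, n = 4 libraries) of Myc, 6 genes of the MYC and MAX network and the MYC target Odc1 in the 4 populations, as bars from 0. Myc is high in all 3 tissue populations, Mxd1 and Odc1 in cornea, Mlxipl in retina and brain, and Mxd3 in monocytes.

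Known MYC targets of ribosome formation and nucleotide synthesis differed from Myc in the order of the populations. Of 18 measured, 11 rose and 4 fell in cornea against retina (median 0.58), 10 rose and 3 fell against brain (0.61), and 11 rose and 2 fell against monocytes (0.85). With total counts these splits were 6 and 8 (-0.22), 6 and 6 (-0.06), and 7 and 5 (0.17). In retina 6 rose and 4 fell against monocytes (0.26), and in brain 6 rose and 4 fell (0.31), although Myc was 12.5-fold and 7.9-fold higher there. Odc1, the first enzyme of polyamine synthesis, averaged 332 ± 58.3 CPM in cornea, against 8.93 ± 1.62 in retina, 6.53 ± 0.389 in brain and 4.53 ± 0.551 in monocytes (SD, n = 4 each). Ncl, the nucleolar protein nucleolin, averaged 1009 ± 176 CPM in cornea, against 197 ± 31.3 in retina, 210.1 ± 21.7 in brain and 263 ± 19.6 in monocytes. Cad, the enzyme that starts pyrimidine synthesis, fell in cornea to 5.16 ± 3.13 CPM, against 22.4 ± 6.56 in retina and 26.5 ± 7.86 in brain. Between retina and brain 0 of 18 were called.

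The genes most like each of the 7 over the 16 libraries were taken by Pearson's r of log2 CPM, as a description in which the points share populations. Cebpb ran closest to A530040E14Rik (r = 0.984) and to the interferon-induced Ifit1 (0.978) and Isg15 (0.978). Ifit1 averaged 828 ± 256 CPM in cornea, 19.9 ± 2.45 in retina, 7.22 ± 2.55 in brain and 129 ± 19.8 in monocytes (SD, n = 4 each), the order of Cebpb. Cebpe ran closest to Pdlim1 (0.981), Plekhg1 (0.974) and Pglyrp1 (0.973), a granule protein of neutrophils, and Gfi1 to Il31ra (0.988), the neutrophil protease gene Prtn3 (0.974) and Spink2 (0.972). Myb ran closest to Clec2i (0.969), Nup37 (0.955) and Hells (0.949), and Myc to Slc39a4 (0.984), Dst (0.983) and Gas6 (0.978), a ligand of the receptors by which macrophages take up dying cells. Cebpa had Zfp651 (0.919), Zbed5 (0.909) and Diablo (0.901), and Cebpd, which differed little between populations, had Ctdsp1 (0.816), Gm10086 (0.811) and Gm13341 (0.803).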

How the data were processed

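Per the file headers, the deposited table holds raw read counts per gene, whole numbers without normalization, and a gene length in bases, which is of another unit, per the file headers, and was used for CPM per kilobase alone. The submitters' processing notes name CASAVA 1.8.2, Subread, featureCounts, limma and GRCm38.p4. No source used here states the annotation release, the strand setting or how multi-mapped reads were counted, and the labels' extraction protocol describes another experiment, so kit and strand are uncertain. Symbols of 27 entries had become dates (at most 0.223% of a library's counts), and no named gene is among them.

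A filter on low counts (filterByExpr, populations as groups, minimum 10) kept 15754 of 45664 entries. All 16 libraries were fitted in edgeR 4.0.16 (R 4.3.3) with TMM factors and population as the only term, leaving 12 residual degrees of freedom, and 6 contrasts were tested by the quasi-likelihood test with Benjamini-Hochberg adjustment. SEs were derived from the fold change and its F statistic. The fit was tested on simulated data. Intervals on pooled counts are exact at 95%. Depth, 8.68 to 21.76 M counts per library, limits the precision of Cebpe, Gfi1 and Myb.

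The 7 genes and the 10 lists (158 genes) were chosen with earlier results of these data known. Each comparison names at most the 4 called genes of a list with the largest absolute log2 fold change whose libraries do not overlap, and the 3 genes most like each of the 7. Csf3r in microglia against monocytes was named outside that rule, after its values were seen. Marker lists number 15. Coordinates are of GENCODE vM21 on GRCm38. Alternatives were RLE factors, total counts, DESeq2 1.42.0, no filter or a minimum of 50, and fits of a pair only. Further ones were the lane, the range in brain and monocyte titles as a block, and leaving out libraries.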

Additional observations from a re-analysis of the deposited data

Results flagged for a closer look

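In groups of 4 libraries, the highest or lowest library was set against the others by Dixon's criterion at 95%. Of 24 groups tested, 3 exceeded it, where chance flags about 1 in 20 groups of normally distributed values. Groups of few counts, such as Gfi1 and Myb outside bone marrow, need not follow that rate. Cebpd in cornea had its highest library at 81.9 CPM (cornea 4), against 44.5 to 50.4 CPM in the other cornea libraries. Cornea 4 is the 1 cornea library of lane 3, and without it Cebpd differed from retina by a log2 fold change of 0.05 (adjusted p = 0.862) and from brain by 0.03 (adjusted p = 0.93). Gfi1 in cornea had its highest library at 0.426 CPM (cornea 2), on 5 counts, with 0 in the other cornea libraries. With 3 libraries at 0 any count in the fourth exceeds the criterion, so the rate of 1 in 20 does not apply to it. Without cornea 2, Gfi1 was -8.1 against monocytes (adjusted p = 0.00159), a fall whose direction was fixed by the filter. Myb in brain had its highest library at 0.712 CPM (brain 2), on 7 counts, against 0 to 0.0857 CPM in the other brain libraries. Brain 2 also held the granulocyte markers of the brain libraries, 18.5 CPM against at most 0.218 CPM. Without brain 2, Cebpb was -2.56 against monocytes (adjusted p = 2.07e-07). Myb was then -8.85 (adjusted p = 7.02e-05), a fall whose direction was fixed by the filter. The part of other cells in brain 2 was not tested.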

How the results depend on the processing

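Over the alternatives, 964 log2 fold changes of the 7 genes kept direction and call, 20 lost a call, 17 gained one and 27 changed sign. None that changed sign was called. The 964 include Cebpe and Gfi1 in retina against brain, with 0 counts in both. They also include Cebpe, Gfi1 and Myb against monocytes, whose direction was fixed by the filter, so the tally overstates stability. The counts of the 7 genes called against monocytes moved by at most 1.5 times under every alternative. So did all genes called in 5 of the 6 comparisons. Between retina and brain, 1662 genes were called, against 463 with the lane as a term and 813 with the replicate block. The 1 called gene, Myc, became 0 without a filter, with the lane, with the block and without the 3 libraries lacking the letter b, and the count of called genes was 0 to 1 with a library left out. Without brain 2 the 1 called gene was Cebpb (0.83, adjusted p = 0.0308) and not Myc. Cornea against retina gave 4 of 7 with total counts, 1 with a minimum of 50 and 1 in the fit of the pair only, where 2 were called. Among called genes in retina against brain, 82.3% were higher with total counts, against 65.9% with TMM, and in cornea 25.6% against retina, 31.9% against brain and 31.7% against monocytes, where TMM gave 46.8%, 50.5% and 50.9%.

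Signs changed as follows. With total counts, Cebpd was -0.48 in cornea against retina and -0.38 against brain, Myb -0.03 and Myc -0.20 in cornea against brain, and Cebpa 0.07 and Cebpd 0.11 in retina against brain. With the lane, Myb was -0.38 in cornea against brain, Cebpd 0.06 in cornea against monocytes and 0.29 in retina against brain. For Cebpd in cornea against monocytes, RLE gave 0.04, a minimum of 50 gave 0.01, DESeq2 0.03, the pair only 0.02, the block 0.03 and omission of the 3 libraries 0.03, and that omission gave Myb 0.61 in cornea against retina. Cebpd in retina against brain was 0.01 without a filter and 0.08 with the block. With libraries left out, Myb ran over -1.12 to 3.02 in cornea against brain, Cebpd over -0.30 to 0.04 in cornea against monocytes and -0.21 to 0.12 in retina against brain, and Cebpa over -0.22 to 0.07 there. The cause was not tested in any case.

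The block used the title ranges 4-6 and 7-9, shared by 2 brain and 2 monocyte libraries. The title numbers shared among cornea and among retinal libraries were not in the block. Leaving out the 3 libraries lacking the letter b removed a library of each such pair. Deviations of brain and monocyte libraries of the same range correlated at -0.01 and 0.033 over 15754 genes, and those of unlike range at -0.027 and -0.007. As the libraries are of different cell types, this cannot tell whether a shared range stands for shared animals or handling. The block gave 0.36 for Myc in retina against brain (adjusted p = 0.334). Cebpe, Gfi1 and Myb gave no value in some comparisons under the minimum of 50 or the fit of the pair only, since they did not pass those filters. With total counts 6 mean CPM values moved by more than 1 SD. Depth limits Cebpe, Gfi1 and Myb outside the bone marrow to values of a few counts.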

Other observations

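Beside 2 of the 7 genes lie long noncoding RNA genes, chosen after their values were seen. Pvt1 (chr15:62037986-62378096, GRCm38), downstream of Myc on the same strand, stood at 3.86, 1.62, 4.54 and 0.531 CPM in cornea, 24.3, 16.2, 14.3 and 14.4 CPM in retina, 13.5, 11.0, 7.84 and 2.61 CPM in brain, and 0.136, 0, 1.19 and 0.852 CPM in monocytes. All retinal libraries lay above all others, while cornea and brain overlapped. Pvt1 fell in cornea against retina (log2 fold change -2.72, SE 0.69, adjusted p = 0.00227) and against brain (-1.74, SE 0.68, adjusted p = 0.0315), whereas Myc was not called against either, and the difference between both genes was not tested. Against monocytes it rose in cornea by 2.29 (adjusted p = 0.0163), in retina by 5.02 (adjusted p = 4.38e-05) and in brain by 4.03 (adjusted p = 0.000298).

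A530013C23Rik (chr2:167691177-167729172), downstream of Cebpb on the same strand, averaged 3.69 ± 0.645 CPM in cornea, 0.15 ± 0.155 in retina, 0.0254 ± 0.0508 in brain and 0.398 ± 0.287 in monocytes (SD, n = 4 each). It rose in cornea against retina (log2 fold change 4.62, adjusted p = 0.00015), brain (6.88, adjusted p = 2.71e-05) and monocytes (3.13, adjusted p = 0.00212), as Cebpb did. Early progenitor markers summed to 20.0 to 24.1 CPM in cornea, 526 to 625 CPM in retina, 577 to 674 CPM in brain and 51.3 to 77.0 CPM in monocytes. Of these, Cd34 made up 496 ± 45.9 CPM in retina and 468 ± 21.3 CPM in brain, against 9.25 ± 2.57 CPM in monocytes, so the sum follows this 1 gene. Flt3 went the other way, with 4.37 ± 2.81 CPM in cornea, 2.06 ± 0.783 in retina, 1.15 ± 1.02 in brain and 36.4 ± 11.6 in monocytes.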
